A study of Mus musculus with 4 samples.

Results

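Nos2 Inhba cells were myeloid cells of mouse tumours that carried transcripts of Nos2, the inducible nitric oxide synthase, or of Inhba, which encodes the activin A subunit. They were selected on measured values. A cell was taken if it held 300 to 5000 genes and at most 6% mitochondrial UMIs (unique molecular identifiers, counts of captured transcripts), at least 2 UMIs of Nos2 and Inhba together and at least 1 UMI of Lyz2, the myeloid lysozyme. It had to hold fewer than 10 UMIs of the complement genes C1qa, C1qb and C1qc together, fewer than 2 of the resident-macrophage genes Mrc1, Pf4, Ccl8, Retnla and Folr2, and no UMI of Cd3e, Cd3d, Cd3g or Cd79a, which mark T and B cells. The rule took 1930 cells, which was 8.39% of the 23011 cells that passed the quality limits and came from 24839 barcodes. There were 589 of these cells in the untreated library, 351 in the STING agonist library, 653 in the LTbR agonist library and 337 in the library that received both agonists.

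The cells came from male C57BL/6 mice with subcutaneous KPC tumours, a transplanted pancreatic cancer model. The first group was untreated, another received the STING agonist ADU-S100 by injection into the tumour, another received the agonistic antibody 4H8 against the lymphotoxin beta receptor (LTbR) by intraperitoneal injection, and the last received both. All 4 groups carried the same tumour. Tumours of a group were pooled, live CD45-positive cells were sorted and 1 library of 5′ single-cell RNA was made for each group. With 1 library per group no difference between groups has a replicate check, no test was possible, and treatment cannot be told apart from any other difference between the libraries. All intervals below are exact 95% intervals, or for ratios of shares log-scale intervals, and cover counting error only.

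Nitric oxide synthase and arginase compete for arginine: the first makes nitric oxide, which is toxic to microbes and to neighbouring cells, and the second, Arg1, makes urea and ornithine and starves T cells of arginine. Activin A is a secreted ligand of the TGF-beta family that activated macrophages make. Il1a encodes an alarm cytokine, and Spp1 encodes osteopontin, a matrix protein that macrophages in poorly perfused tumour areas are known to make.

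The median cell held 8824 UMIs in the untreated, 10224 in the STING agonist, 8375 in the LTbR agonist and 9199 in the combination library. Median mitochondrial shares lay between 0.552% and 0.735%. Whole libraries held 32529174 to 60770280 UMIs, and 90.9% to 94.8% of their barcodes passed the limits. In all, 284 barcode sequences of 24555 distinct ones occurred in more than 1 library, 49 sequences of Nos2 Inhba cells also sat on a filtered cell of another library, and 3 of these sequences were on a Nos2 Inhba cell there too. Of T cells, which should lack Nos2 and Inhba, 0.376%, 0.173%, 0.889% and 0.426% held at least 2 UMIs of the pair in the untreated, STING agonist, LTbR agonist and combination libraries, at median depths of 4728 to 5617 UMIs.

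The label of these cells as macrophages was only partly borne out by their markers. Macrophage genes were present: Csf1r, the receptor for the macrophage growth factor, was detected in 90.4% to 92.3% of cells across libraries, Cd14, a co-receptor for bacterial lipopolysaccharide, in 95.7% to 96.6%, and Fcgr1, a high-affinity antibody receptor, in 78.9% to 89.5%. Adgre1, which encodes F4/80, was detected in only 26.8% of untreated cells and in 16.3% of combination cells. Monocyte genes were present as well: Plac8 in 93.7% to 95.1% of cells, Ly6c2 in 71.2% to 79.8% and Ccr2, the receptor that draws monocytes out of the marrow, in 76.0% to 84.0%. Since both sets were present, the cells are called here by the rule's genes, as Nos2 Inhba cells. Of other cell types, the mast cell and basophil genes Mcpt8, Cpa3, Ms4a2 and Gata2 were at 0 in every library, while Kit, also on that list, was not. At least 2 of 4 plasmacytoid dendritic genes were held by 49.0% to 53.7% of cells. Of these genes only Bst2, also on the interferon list, and Tcf4 had enough UMIs to be measured, and Siglech was at 0 in STING agonist and combination cells. Neutrophil genes were found too: 33, 32, 41 and 6 cells held at least 2 of the 7 on that list, which was 5.60%, 9.12%, 6.28% and 1.78% of Nos2 Inhba cells in the untreated, STING agonist, LTbR agonist and combination libraries. The summed level of that list was 482 CPM (UMIs of the gene in each 1000000 UMIs) in untreated, 1498 in STING agonist, 791 in LTbR agonist and 166 in combination cells, and the neutrophil genes named below are also given without those cells, an alternative added after the data were seen.

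Nos2 and Inhba did not mark the same cells throughout. Both genes were detected in 1048 cells, or 54.3%. Another 442 cells, 22.9%, had Nos2 and no Inhba, and 440 cells, 22.8%, had Inhba and no Nos2. The median cell held 8 UMIs of the pair, with the middle of the distribution from 4 to 19 and a maximum of 189. At the lower limit, the 263 cells with exactly 2 UMIs had Arg1 in 70.0% and Il1a in 38.4%, while the 459 cells with 1 UMI, just outside the rule, had Arg1 in 57.7% and Il1a in 33.8%, and the 3994 cells with none had Arg1 in 21.8% and Il1a in 10.2%. At the complement limit, the 137 cells with 5 to 9 C1q UMIs had Arg1 in 92.7%, and the 99 cells with 10 to 14 had it in 88.9%. At the resident-gene limit, Arg1 was detected in 88.8% of the 294 cells with 1 such gene and in 98% of the 50 cells with 2. Arg1 was thus detected more often inside than outside the lower limit, and less often inside than outside the resident-gene limit.

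The complement limit removed more cells than any other criterion. Of 4249 filtered cells with at least 2 UMIs of Nos2 and Inhba, 1663, or 39.1%, held 10 or more C1q UMIs, and 1143 were left out for that reason alone. Those 1143 cells made up 6.52% of filtered cells in the untreated library (5.94 to 7.13%), 6.91% in STING agonist (6.12 to 7.77%), 4.07% in LTbR agonist (3.63 to 4.56%) and 2.83% in combination (2.40 to 3.31%). They were lower in both libraries that received the LTbR agonist, and the intervals of these did not overlap those of the untreated and STING agonist libraries. This was not particular to cells with Nos2 or Inhba. Macrophages with as much C1q but fewer than 2 UMIs of the pair were 6.72%, 5.20%, 3.19% and 3.00% of filtered cells in the same order. Apoe, a lipid carrier of mature macrophages, was detected in 85.2% of the 1143 cells. Among the Nos2 Inhba cells themselves, 1369, or 70.9%, held no C1q UMI.

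The share of Nos2 Inhba cells was lowest in the combination library. They were 8.68% of filtered cells in the untreated library (8.02 to 9.38%), 9.36% in STING agonist (8.45 to 10.3%), 9.14% in LTbR agonist (8.48 to 9.83%) and 6.32% in combination (5.68 to 7.01%). The interval of the combination library lay below the other 3, which overlapped each other. Against untreated, the ratio of shares was 0.728 (0.640 to 0.828) in the combination library, 1.08 (0.951 to 1.22) in the STING agonist library and 1.05 (0.946 to 1.17) in the LTbR agonist library. The difference was much smaller among myeloid cells. Of cells with Lyz2 and no Cd3 or Cd79a UMI, Nos2 Inhba cells made up 19.1% (17.8 to 20.6%) in untreated, 22.4% (20.4 to 24.5%) in STING agonist, 21.1% (19.6 to 22.6%) in LTbR agonist and 18.1% (16.3 to 19.9%) in combination, and the ratio of combination to untreated was 0.943 (0.836 to 1.06). Both denominators come from a CD45 sort, and in bulk shares of this kind fewer Nos2 Inhba cells cannot be told apart from more of the other cells.

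**Figure D1:**
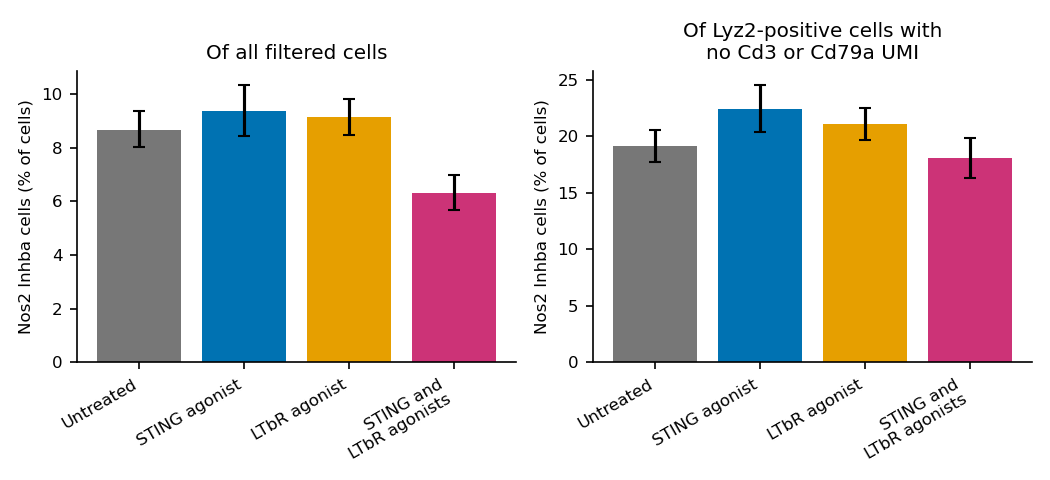
Share of Nos2 Inhba cells in each of the 4 libraries, as a percentage of all filtered cells (left) and of Lyz2-positive cells with no Cd3 or Cd79a UMI (right). Bars are the shares and error bars exact 95% binomial intervals for counting error only, and the combination library is lowest on the left at 6.32% while on the right its 18.1% overlaps the 19.1% of untreated.

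Genes of these cells were followed in comparison with 5375 other macrophages and monocytes, defined by at least 2 of 8 macrophage and monocyte genes and drawn from the same libraries. Each of those cells also held fewer than 2 UMIs of Nos2 and Inhba together, at least 1 UMI of Lyz2 and no Cd3 or Cd79a UMI. These included 1039 C1q-high macrophages, 600 macrophages with resident genes and 2153 monocytes with Ly6c2 and little C1q. Since the cells were chosen by their counts, these differences are a description. Log2 ratios were taken after 10 CPM had been added to both sides. Nos2 stood at 588, 671, 552 and 599 CPM and Inhba at 757, 959, 1085 and 1043 CPM in untreated, STING agonist, LTbR agonist and combination cells. In the other macrophages and monocytes Nos2 was at 5.63 to 12.5 CPM and Inhba at 7.20 to 8.91 CPM, where the limit on the pair held them low.

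Of the markers that the rule did not use, Il1a was 328, 308, 334 and 293 CPM in the same order, against 48.4 to 79.5 CPM in other macrophages and monocytes, and was higher by 1.92 to 2.37 on the log2 scale. Spp1 was 751, 735, 1305 and 508 CPM, higher by 1.63 to 2.19. Arg1 was 2032, 2218, 2564 and 1536 CPM, higher by 0.94 to 2.00. Each of these markers was above the other macrophages and monocytes in all 4 libraries. Cells left out of the rule for C1q alone were not part of this comparison. In them Arg1 was detected in 93.4%, Il1a in 62.0% and Spp1 in 47.9%, at a median of 11939 UMIs. In Nos2 Inhba cells, at a median of 8914 UMIs, Arg1 was detected in 70.0% to 86.2% across libraries, and Il1a in 57.2%. These markers thus did not set Nos2 Inhba cells apart from those with more C1q. Arg1 did not separate Nos2 Inhba cells from macrophages with resident genes in every library, where the log2 ratio ran from -0.56 to 1.20. Over Ly6c2 monocytes the same ratios were larger, 1.77 to 3.30 for Arg1 and 2.77 to 3.59 for Spp1. With libraries summed, Spp1 was higher by only 0.40 over macrophages with resident genes, and by 1.49 over C1q-high macrophages. Spp1 was detected in 37.0% of Nos2 Inhba cells, and in 8.57% to 14.04% of T cells, which should lack it.

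By the smallest of the 4 library ratios, the genes highest over other macrophages and monocytes were Inhba, Nos2, Il1a, Rsad2, Spp1, Hilpda, Clec5a, Ero1l, Cxcl3, Egln3, Slfn4, Sdc1, Slpi, Grina and Cmpk2. The first places of Inhba and Nos2 follow from how both sets of cells were chosen. Rsad2, which encodes the antiviral protein viperin, stood at 791, 683, 765 and 594 CPM against 135 to 227 CPM. Hilpda, a lipid droplet protein induced by low oxygen, stood at 472, 495, 632 and 429 CPM against 127 to 177 CPM. Ero1l, an oxidase of the endoplasmic reticulum, stood at 372, 378, 528 and 474 CPM against 123 to 148 CPM, and Clec5a, a myeloid lectin receptor, at 367, 320, 391 and 405 CPM against 92.1 to 141 CPM. Cxcl3, a chemokine for neutrophils, was found in only 9.95% of cells. At the other end were the rule's own C1q genes, then Mgl2, Ccl8, Plet1, Retnla, Mrc1, Tmem176b, Cx3cr1, Tmem176a, Cst3, Selenop, Pf4 and Ckb. Of these, Ccl8, Retnla, Mrc1 and Pf4 are resident-macrophage genes that the rule limited, so their low places follow in part from the selection. Cx3cr1, the receptor for fractalkine, was 9.19 to 23.4 CPM against 45.1 to 124 CPM.

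**Figure D2:**
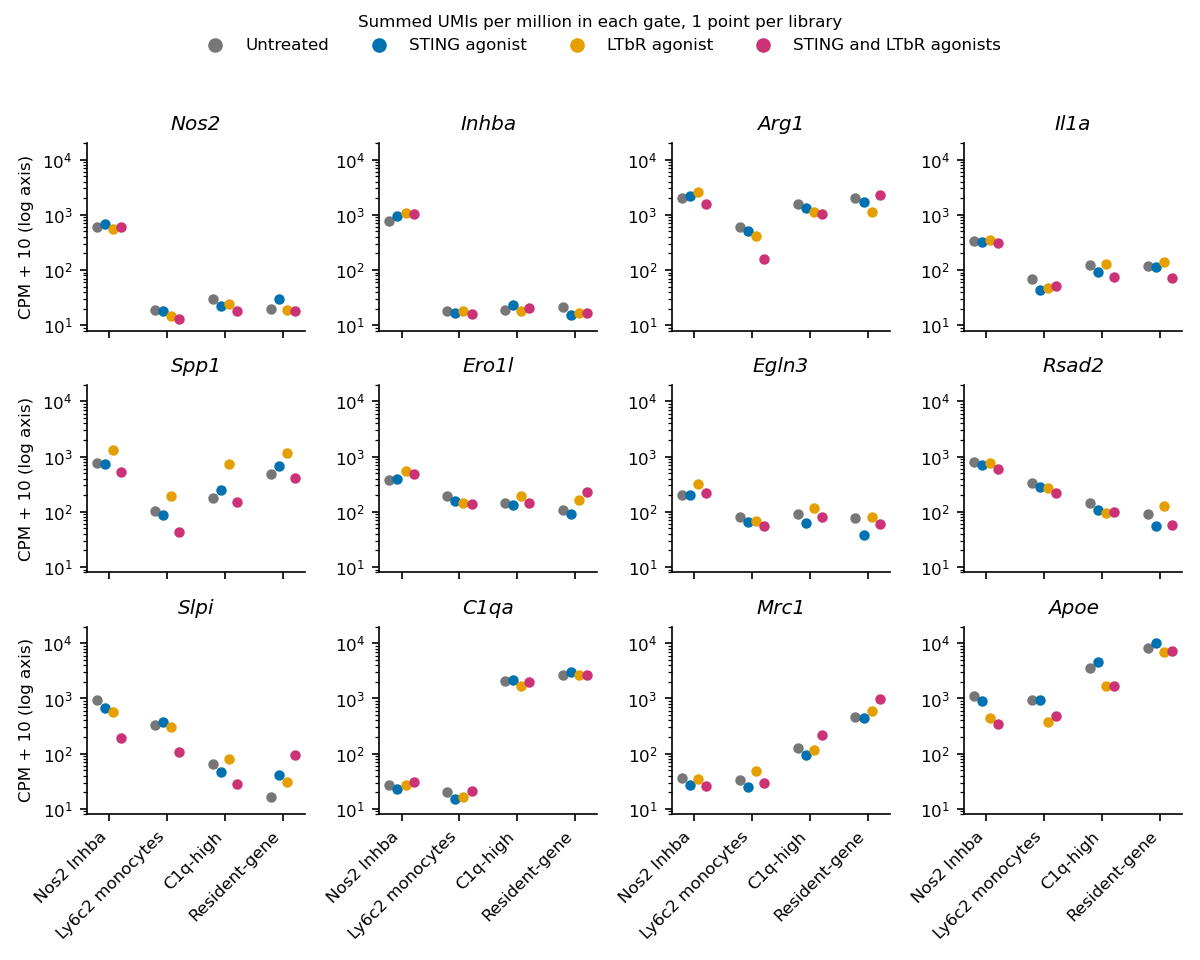
Level (CPM of summed UMIs, with 10 added, log axis) of 12 genes in Nos2 Inhba cells, Ly6c2 monocytes, C1q-high macrophages and macrophages with resident genes. Each point is 1 library. Nos2 and Inhba are high only where the rule required them, since the other cells were limited to fewer than 2 UMIs of the pair. Il1a is highest in Nos2 Inhba cells in every library, and Arg1 in macrophages with resident genes reaches the level of Nos2 Inhba cells.

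Grouped by function, the glycolysis and hypoxia genes were the most uniform. All 22 measured genes of that list were above other macrophages and monocytes in each of the 4 libraries, with a median log2 ratio of 0.69 when libraries were summed, against a median of -0.07 over all genes. Egln3, an oxygen sensor that itself responds to hypoxia, had the highest ratio, 1.68, and Adm the lowest, 0.13. Levels were high for the main glycolytic enzymes: Gapdh stood at 2521, 2358, 2822 and 2557 CPM, Pkm at 1684, 2193, 1607 and 1815 CPM and Ldha at 1128, 1286, 1149 and 1199 CPM in untreated, STING agonist, LTbR agonist and combination cells. None of the 21 measured genes of this list differed past 2-fold between any treated library and untreated.

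Inflammatory cytokines and chemokines were next. Of 20 measured genes, 15 were above other macrophages and monocytes in all 4 libraries, 9 by at least 2-fold in the sum, and the median log2 ratio was 0.75. Il1b, the central inflammatory cytokine, was detected in 97.0% to 98.6% of cells and stood at 6373, 6534, 5578 and 5610 CPM. Cxcl2, another neutrophil chemokine, stood at 1724, 1602, 1866 and 1433 CPM, and Vegfa, the main angiogenic factor, at 703, 795, 801 and 701 CPM. In contrast, Tnf was 20.3, 35.3, 20.4 and 18.8 CPM and Il6 was 41.2, 36.5, 60.9 and 32.2 CPM, and each was detected in at most 17.6% of cells of any library. Ptgs2, the inducible enzyme of prostaglandin synthesis, stood at 644, 767, 611 and 512 CPM in a list of inflammatory effectors of which 11 of 15 measured genes were higher in all 4 libraries, with a median log2 ratio of 0.70. Marker lists and function lists overlap in a few genes, and genes within a list are not independent.

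Interferon-response genes were higher too, with 14 of 19 above other macrophages and monocytes in all 4 libraries and a median log2 ratio of 0.54. Genes that present antigen on MHC class II went the other way over other macrophages and monocytes: 6 of 9 were lower in all 4 libraries, with a median of -0.44 and the lowest ratio, -0.75, for H2-Eb1. Over Ly6c2 monocytes 8 of 9 were higher, with a median of 0.35. Of activin genes, Inhba stood alone: the other activin subunit gene Inhbb was at 1.10 CPM or less, the inhibitor Fst was near 0, and the receptor genes Acvr1b and Acvr2a stood at 24.6 to 33.9 and 33.7 to 39.9 CPM. Of the receptors that the agonists target, Ltbr stood at 54.3, 60.6, 50.5 and 51.9 CPM, and Tmem173, which encodes STING, at 66.4, 82.1, 62.4 and 88.0 CPM. Cells with a UMI of the proliferation genes Mki67 or Top2a were 5.41% to 6.82% of Nos2 Inhba cells, and 0.920% to 2.77% when every cell was thinned to 2000 UMIs.

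**Figure D3:**
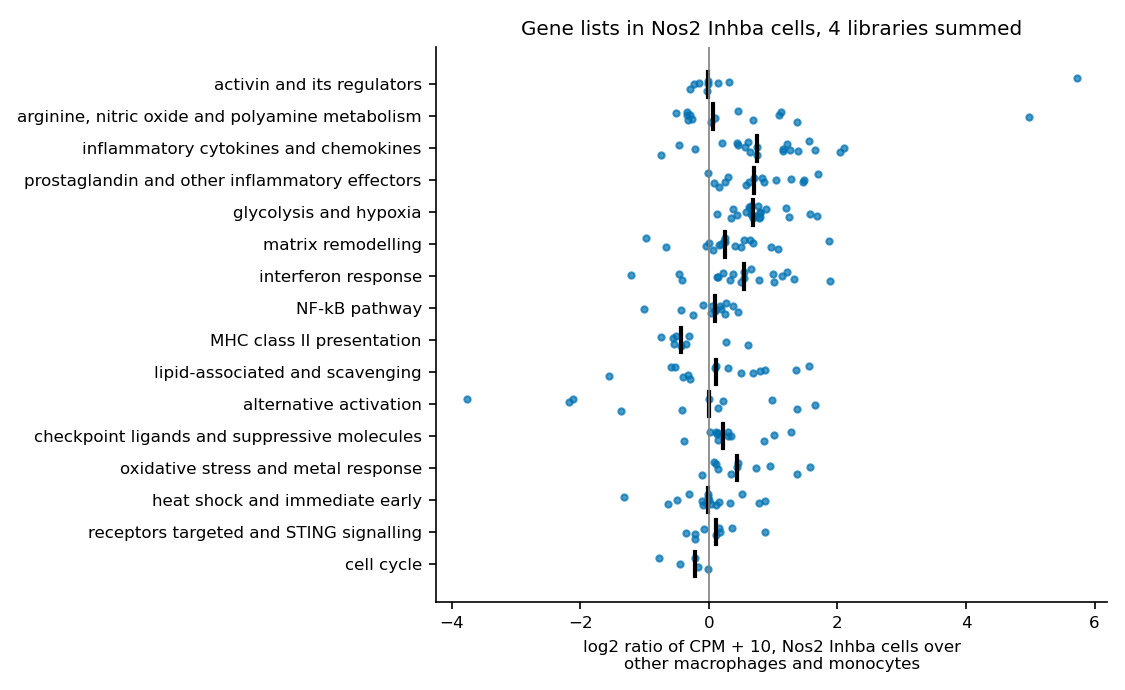
Log2 ratio of CPM (10 added) in Nos2 Inhba cells over other macrophages and monocytes, libraries summed, for the measured genes of 16 lists. Each point is a gene and each black bar a list median; glycolysis and hypoxia genes all lie to the right of 0 with a median of 0.69, and the MHC class II list has a median of -0.44.

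The promoters of genes from both lists were read to show what sequence lies upstream of them, in RefSeq windows of 300 bases (GRCm38.p6, 250 bases before to 50 after the transcript start). The letters ACGTG, the core bound by hypoxia-inducible factors, were searched on both strands and were found in windows of 14 of 21 glycolysis and hypoxia genes, or 66.7%, and in 21.8% of all 27025 genes. A GAAA block followed after 2 free bases by another GAAA, a form of the element bound by interferon regulatory factors, was found on either strand in windows of 9 of 16 interferon-response genes, or 56.2%, and in 3.99% of all genes. No interferon-response gene held the first set of letters and no glycolysis and hypoxia gene the second. A match of letters is a description and shows no binding. The table has no entry for Nos2 or Arg1. Shown here are Inhba, which defines the cells and holds neither set of letters (chr13:16011601-16011900, plus strand), Egln3, highest of the hypoxia list (chr12:54203825-54204124, minus strand), Rsad2, highest of the interferon list (chr12:26456403-26456702, minus strand), and Gbp2, whose level differed between libraries (chr3:142620413-142620712, plus strand), each 5′ to 3′ with matches in capitals.
Inhba: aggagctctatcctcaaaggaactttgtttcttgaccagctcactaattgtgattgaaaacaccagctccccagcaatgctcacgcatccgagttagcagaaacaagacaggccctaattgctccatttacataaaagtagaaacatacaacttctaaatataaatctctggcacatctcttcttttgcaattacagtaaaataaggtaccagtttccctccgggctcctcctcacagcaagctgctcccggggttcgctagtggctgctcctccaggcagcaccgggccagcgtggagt
Egln3: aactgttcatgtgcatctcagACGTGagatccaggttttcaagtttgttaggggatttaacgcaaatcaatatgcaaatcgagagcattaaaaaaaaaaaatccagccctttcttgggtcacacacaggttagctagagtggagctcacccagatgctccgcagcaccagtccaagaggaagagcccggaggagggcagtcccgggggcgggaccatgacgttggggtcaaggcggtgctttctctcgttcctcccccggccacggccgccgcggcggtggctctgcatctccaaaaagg
Rsad2: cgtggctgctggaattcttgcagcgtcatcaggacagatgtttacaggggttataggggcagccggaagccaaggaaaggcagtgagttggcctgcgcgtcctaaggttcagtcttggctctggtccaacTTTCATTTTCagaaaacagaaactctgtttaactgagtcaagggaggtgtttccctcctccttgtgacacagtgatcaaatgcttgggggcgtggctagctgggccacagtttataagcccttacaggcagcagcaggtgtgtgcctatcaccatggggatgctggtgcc
Gbp2: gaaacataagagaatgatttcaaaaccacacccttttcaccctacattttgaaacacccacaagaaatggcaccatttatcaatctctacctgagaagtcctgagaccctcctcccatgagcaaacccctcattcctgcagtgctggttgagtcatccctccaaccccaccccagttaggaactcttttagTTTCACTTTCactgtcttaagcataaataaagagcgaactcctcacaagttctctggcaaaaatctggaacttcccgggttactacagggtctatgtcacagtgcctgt
The match begins 229 bases before the start in Egln3, 120 before it in Rsad2 and 59 before it in Gbp2.

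Differences between libraries were then read within the Nos2 Inhba cells. A gene was counted as past 2-fold where the log2 ratio reached 1 in either direction, its counting interval left out 0, and at least 50 UMIs were held over the pair of libraries. With the STING agonist, 10 genes were higher and 15 lower than in untreated, or 0.119% and 0.178% of 8409 measured. With the LTbR agonist, 16 were higher and 18 lower, or 0.179% and 0.201% of 8940. With both agonists, 15 were higher and 43 lower, or 0.178% and 0.51% of 8424. The combination differed from the STING agonist alone in 13 genes higher and 38 lower, 0.166% and 0.485% of 7830, and from the LTbR agonist alone in 10 higher and 22 lower, 0.118% and 0.259% of 8478. The 3 comparisons with untreated share that library.

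Of the genes that define or mark the cells, none was past 2-fold from untreated. On the log2 scale, Nos2 over untreated was 0.19 (0.11 to 0.26) for STING agonist cells, -0.09 (-0.16 to -0.02) for LTbR agonist cells and 0.03 (-0.05 to 0.11) for combination cells. Inhba was higher by 0.34 (0.27 to 0.40), 0.51 (0.46 to 0.57) and 0.46 (0.39 to 0.52). Both genes are part of the rule, which limits how far they can move. Spp1 was detected in 51.3% of LTbR agonist cells and in 28.5% to 30.2% of the others, and its log2 ratio to untreated was 0.79 (0.73 to 0.84) in LTbR agonist cells and -0.56 (-0.64 to -0.48) in combination cells. The combination was thus lower in Spp1 than the LTbR agonist alone by -1.35 (-1.42 to -1.27). The LTbR agonist library was also highest for Spp1 in C1q-high macrophages, at 713 CPM against 141 to 244 CPM.

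Arg1 was lowest in the combination. It was detected in 82.9%, 76.1%, 86.2% and 70.0% of untreated, STING agonist, LTbR agonist and combination cells, and in 71.1%, 64.9%, 76.2% and 58.3% after thinning to 2000 UMIs. Cells with Nos2 and Arg1 together made up 68.1%, 66.7%, 66.8% and 55.8%. After thinning, these were 38.3%, 41.5%, 40.6% and 29.8%. Cells with Nos2 and no Arg1 made up 12.6%, 11.7%, 7.04% and 20.8%, highest in the combination. Other genes of arginine use followed other orders. Ass1, which rebuilds arginine from citrulline, stood at 615, 861, 607 and 980 CPM, higher in both libraries that received the STING agonist, and Slc7a2, an arginine importer, stood at 119, 160, 205 and 164 CPM. None of the 14 measured genes of this list was past 2-fold from untreated.

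A group of interferon genes was highest in the 2 libraries that received the STING agonist and lowest with the LTbR agonist alone. Cxcl9, a chemokine for T cells that interferon gamma induces, stood at 346 CPM in untreated, 690 in STING agonist, 137 in LTbR agonist and 668 in combination cells. Its log2 ratio to untreated was 0.98 (0.89 to 1.06), -1.28 (-1.39 to -1.17) and 0.93 (0.84 to 1.02), and the combination was higher than the LTbR agonist alone by 2.21 (2.10 to 2.32). It was detected in 27.8%, 38.7%, 18.1% and 47.5% of cells, and in 1.63% to 2.82% of T cells. The same pattern, with LTbR agonist lowest, held for Gbp2, a guanylate-binding protein (712, 1081, 409 and 842 CPM). It also held for Irf1, an interferon regulatory factor (211, 272, 152 and 284 CPM), which was highest in the combination rather than with the STING agonist alone. Gbp2 is shown above with its promoter. Over the list, 0 of 19 measured genes were past 2-fold higher with any treatment against untreated. Lower were 0 with the STING agonist, 2 with the LTbR agonist (Cxcl9 and Ifitm1) and 1 with both (Ifitm1). The list medians were 0.01, -0.36 and 0.02, against 0.00, 0.00 and 0.04 over all measured genes.

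Not all other interferon genes shared that pattern. By detection Iigp1 did, in 24.4%, 31.9%, 17.8% and 35.3% of untreated, STING agonist, LTbR agonist and combination cells. Cxcl10 did too, in 44.8%, 48.1%, 42.7% and 53.1%. Others, given next, did not. Isg15 stood at 1863, 1869, 1809 and 1952 CPM and Ifit1 at 174, 184, 169 and 176 CPM, nearly level across libraries. Ifitm1, a membrane protein that restricts viruses, stood at 2150, 1966, 1022 and 971 CPM, lower in both libraries with the LTbR agonist. Gbp2 was also highest with the STING agonist and lowest with the LTbR agonist in Ly6c2 monocytes, at 695, 1005, 366 and 599 CPM, and in C1q-high macrophages, at 572, 758, 276 and 456 CPM. In both of these the combination lay below untreated, while in Nos2 Inhba cells it lay above. Cxcl9 differed less in those cells: in C1q-high macrophages it was 373, 533, 394 and 640 CPM. MHC class II genes were slightly higher with the STING agonist, with 8 of 9 above 0 and a median log2 ratio of 0.35, and with both agonists, with 9 of 9 above 0 and a median of 0.23. With the LTbR agonist 1 of 9 was above 0, with a median of -0.14. None of the 9 was past 2-fold in any of the 3 comparisons.

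Ccl5, Apoe and Ms4a7 were past 2-fold lower with the LTbR agonist, alone and combined. Ccl5, a chemokine for T cells and monocytes, stood at 2690, 1497, 593 and 1017 CPM in untreated, STING agonist, LTbR agonist and combination cells. All 3 treated libraries were below untreated, by -0.84 (-0.89 to -0.80), -2.16 (-2.22 to -2.11) and -1.39 (-1.45 to -1.34). Apoe stood at 1085, 893, 439 and 341 CPM, with log2 ratios of -0.28 (-0.34 to -0.22), -1.29 (-1.35 to -1.22) and -1.64 (-1.73 to -1.55). T cells, which should lack Apoe, held a UMI of it in 4.34% to 7.84%, against 46.0% to 73.9% of Nos2 Inhba cells. Ms4a7, a membrane gene of macrophages, stood at 118, 62.0, 46.8 and 19.7 CPM, and its ratio in the combination was -2.11 (-2.36 to -1.84). Of 15 measured genes for lipid handling and scavenging, 2 were past 2-fold lower with the LTbR agonist and 3 with both (Apoe, Cd63 and Ms4a7), and none was past 2-fold higher. Most members of that list were not lower: 9 of 15 were above 0 with the LTbR agonist and 8 of 15 with both, with medians of 0.03 and 0.02. Of 20 measured cytokines and chemokines, 11 were above 0 with the LTbR agonist, 1 was past 2-fold higher and 2 lower, with a median of 0.01. The lower Ccl5 was shared with other cells of the same libraries: in Ly6c2 monocytes it stood at 934, 499, 217 and 435 CPM. The check in T cells given above for Apoe was not made for Ccl5, so free RNA was not tested for this gene.

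**Figure D4:**
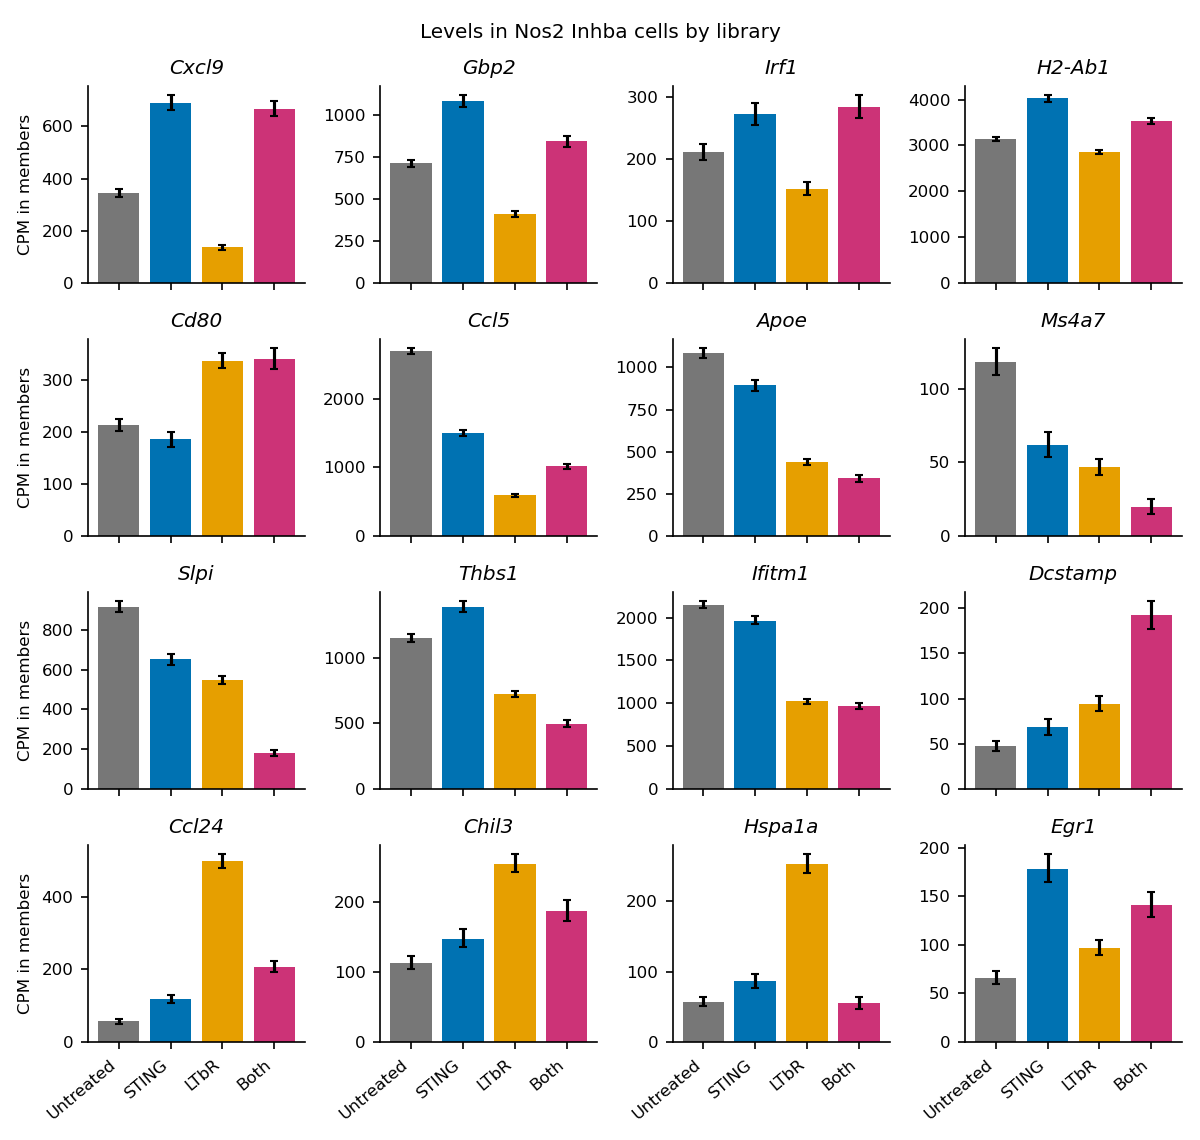
Level (CPM of summed UMIs) of 16 genes in the Nos2 Inhba cells of the 4 libraries. Error bars are exact 95% Poisson intervals for counting error only, and each bar is 1 library without replicates. Cxcl9, Gbp2 and Irf1 are lowest with the LTbR agonist alone, Ccl5 and Apoe are lower with the LTbR agonist alone or combined, and Ccl24 is highest with the LTbR agonist at 499 CPM.

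With the LTbR agonist, Ccl24, an eosinophil chemokine of alternatively activated macrophages, was the gene that differed most. It stood at 56.6 CPM in untreated, 119 in STING agonist, 499 in LTbR agonist and 208 in combination cells, higher than untreated by 2.93 (2.78 to 3.08) with the LTbR agonist and by 1.71 (1.53 to 1.88) with both. It was detected in 6.45%, 6.55%, 20.7% and 9.20% of cells and in at most 1.38% of T cells. In each library the 3 cells with most Ccl24 UMIs held 46.6%, 61.1%, 24.2% and 37.5% of them, so the lower values rest on few cells. In other macrophages and monocytes Ccl24 was 84.2, 27.5, 68.8 and 81.8 CPM, without the peak in the LTbR agonist library. Chil3, another gene of alternative activation, stood at 113, 148, 256 and 188 CPM. Of that list, 0 of 9 measured genes were past 2-fold higher with the STING agonist, 2 of 10 with the LTbR agonist and 3 of 11 with both, while Mrc1 and Retnla were limited by the rule. In the combination Retnla and Mgl2, also among the named genes, rested on few cells, since 3 cells held 86.5% and 55.8% of their UMIs.

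Of 17 heat shock and immediate early genes, 3 were past 2-fold higher with the LTbR agonist, all of them heat shock genes. Hspa1a stood at 56.8, 86.4, 254 and 54.9 CPM and Hspa1b at 60.7, 64.9, 252 and 56.7 CPM, and their log2 ratios to untreated were 1.98 (1.82 to 2.14) and 1.89 (1.74 to 2.04) with the LTbR agonist. These 2 genes are near-identical copies, so reads may be split between them. Hsph1, a chaperone on another chromosome, stood at 12.8, 12.3, 56.4 and 17.9 CPM. The LTbR agonist library was also highest for Hspa1a in other macrophages and monocytes, at 107 CPM against 31.4 to 77.1 CPM. Mt2, a metallothionein, stood at 18.0, 8.62, 71.8 and 34.3 CPM. The other genes named by the rule for this comparison were Lyz1 and Lcn2, higher, and Adgb and Ccr7, lower. In Lyz1 and Lcn2, 3 cells held 79.4% and 94.2% of the UMIs of the LTbR agonist library. Without cells that held 2 or more neutrophil genes, the log2 ratio of Lcn2 went from 1.56 to 0.24.

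Among the genes named for the STING agonist, each found in at least 10 cells, the highest were S100a9 and S100a8. These are the calgranulins of neutrophils and young monocytes, and Egr1, Ccl7 and Pf4 followed. Retnlg, another gene on the neutrophil list, had a higher log2 ratio to untreated than S100a9 but fell outside the rule for naming genes. S100a9 stood at 204, 694, 388 and 74.3 CPM and S100a8 at 194, 601, 338 and 51.0 CPM in untreated, STING agonist, LTbR agonist and combination cells. In the STING agonist library 3 cells held 84.0% of the S100a9 and 80.9% of the S100a8 UMIs. Without cells that held 2 or more neutrophil genes, the log2 ratio of S100a9 went from 1.72 to -0.02, and that of S100a8 from 1.58 to 0.08. Both are among the genes by which those cells were removed, so the drop follows in part from the removal. Egr1, an immediate early transcription factor, was spread over more cells: it was detected in 18.5%, 35.9%, 22.4% and 28.5% of cells, and stood at 66.4, 179, 97.2 and 141 CPM, higher by 1.30 (1.13 to 1.48) with the STING agonist. In Ly6c2 monocytes Egr1 was 52.0, 142, 61.0 and 41.1 CPM. Ccl7 and Pf4 rested on fewer cells, since 3 cells held 45.2% and 73.4% of their UMIs in the STING agonist library. Ccl7 was found in 34 cells there and 47 in untreated, and Pf4 in 20 and 30. Pf4 is also a gene that the rule limited. Bambi, a decoy receptor of the TGF-beta family, was the only one of 9 measured activin genes past 2-fold, at 12.5, 39.6, 24.4 and 17.6 CPM. Lower were Ccr7, Saa3, Plpp3, Klrd1 and Ftl1-ps1, and in the first 4 of these 3 cells held 58.6% to 88.4% of the untreated library's UMIs.

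The combination had the most genes past 2-fold, chiefly lower. Slpi, a secreted protease inhibitor, stood at 917, 652, 549 and 183 CPM in untreated, STING agonist, LTbR agonist and combination cells and was detected in 53.8%, 48.1%, 40.4% and 29.7% of them, lower in the combination by -2.27 (-2.38 to -2.15). Hp, which encodes haptoglobin, stood at 210, 153, 125 and 57.0 CPM, and Thbs1, the matrix protein thrombospondin, at 1148, 1388, 722 and 497 CPM. Ccl4, an inflammatory chemokine, stood at 677, 624, 612 and 317 CPM, lower in the combination only. Saa3, an acute phase gene, stood at 57.9, 17.2, 18.3 and 1.52 CPM but was found in 28 cells of the untreated and 3 of the combination library. Higher were Dcstamp, a fusion gene of osteoclasts and giant cells, at 47.3, 68.1, 94.2 and 192 CPM, and Sulf2, a heparan sulphatase, at 26.0, 51.1, 65.9 and 98.3 CPM. For both genes the combination was highest and untreated lowest, and this order also held for Dcstamp in C1q-high macrophages, at 61.6, 98.6, 255 and 395 CPM. Ccr7 and S100a8 complete the genes named for this comparison, and their ratios turned when cells with markers of other types were removed. Both genes are themselves on the lists by which those cells were removed, so the turn follows in part from the removal.

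Cells with Nos2 alone and cells with Inhba alone differed from each other in a few genes. Of Nos2 Inhba cells, those with Nos2 alone were 29.4% in untreated, 23.4% in STING agonist, 18.1% in LTbR agonist and 20.5% in combination, and those with Inhba alone were 19.4%, 21.7%, 26.2% and 23.4%. Il1a was detected most often in cells with both, in 64.2% to 72.5% across libraries, against 28.0% to 48.3% with Nos2 alone and 34.2% to 51.8% with Inhba alone. Cells with a UMI of both genes hold more UMIs of the pair by construction. Across libraries their median depth was 8362 to 10617 UMIs, against 8394 to 10538 with Nos2 alone and 7596 to 9222 with Inhba alone. In the STING agonist library it was 10617 UMIs, against 7596 with Inhba alone. Detection in these kinds of cell was not matched for depth. Cxcl9 was detected more often with Nos2 alone than with Inhba alone in every library, in 37.0% against 19.3% of untreated cells and in 65.2% against 44.3% of combination cells. Its level did not follow in every library: the log2 ratio of Nos2 alone over Inhba alone ran from -0.16 to 2.30. Genes highest in cells with Nos2 alone were Trpm2, Cox4i2, Pgm1, Zdhhc14 and Ly6a. Ly6a stood at 2352, 2830, 1718 and 2079 CPM with Nos2 alone and at 1530, 1321, 1088 and 1391 CPM with Inhba alone. Genes highest in cells with Inhba alone were S100a9, S100a8, G0s2, Lcn2 and Cxcl2. S100a9 and S100a8 are on the neutrophil list, while Cxcl2 stood at 1934, 1455, 1853 and 876 CPM with Inhba alone against 826, 623, 1051 and 443 CPM with Nos2 alone. S100a9 with Inhba alone reached 3775 CPM in the STING agonist library, where it was 0 with Nos2 alone. Cells with 2 or more neutrophil genes were 7.02%, 21.1%, 10.5% and 3.80% of cells with Inhba alone and 4.05%, 2.44%, 5.08% and 1.45% of cells with Nos2 alone. Without them, S100a9 was at most 2.31 CPM with Inhba alone, S100a8 at most 13.1 CPM and Lcn2 at most 6.15 CPM, and G0s2 was higher with Inhba alone in untreated and LTbR agonist cells only. S100a9 and S100a8 are among the genes by which those cells were removed. Cxcl2 stayed higher with Inhba alone in all 4 libraries, at 1736, 926, 1637 and 699 CPM against 807, 572, 1044 and 450 CPM.

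**Figure D5:**
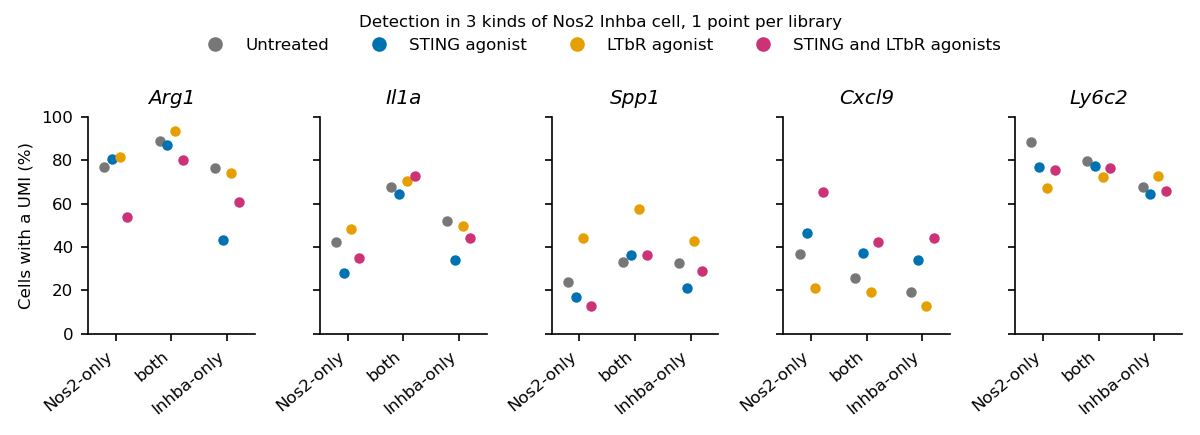
Percentage of cells with a UMI of Arg1, Il1a, Spp1, Cxcl9 and Ly6c2 in Nos2 Inhba cells that had Nos2 alone, both genes or Inhba alone. Each point is 1 library. Il1a is detected most often in cells with both genes, and Cxcl9 more often with Nos2 alone than with Inhba alone in all 4 libraries.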

How the data were processed

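The authors sorted live CD45-positive cells from pooled tumours, made 10x 5′ libraries and, per the submitters' processing notes, used Cell Ranger 7.1.0 with mm10. The deposited matrix holds unnormalized UMI counts of 32285 genes in 24839 barcodes, and the number after the barcode hyphen gave the library, per the labels. No other per-sample column was used. The quality limits of 300 to 5000 genes and at most 6% mitochondrial UMIs follow the study's methods. Cells and gene lists were chosen with earlier results of these data known, so no list is independent evidence. UMIs were summed over cells and divided by the summed total (CPM), and log2 ratios were taken after adding 10 CPM. Genes named per comparison were the 5 highest and 5 lowest past 2-fold found in at least 10 cells, without immune receptor, mitochondrial, ribosomal and unnamed genes, beside list genes, marker genes and 15 genes by smallest library ratio. Detection was also read after thinning cells to 2000 UMIs. Doublets were kept, and Scrublet scores (scanpy 1.11.5, cut at 0.2) gave an alternative. The computation of ratios was tested on simulated data. Analyses used Python 3.11.15. The lists hold 303 symbols, of which 300 were found once in the matrix. A few genes are not reported here.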

Additional observations from a re-analysis of the deposited data

Results flagged for a closer look

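S100a9 and S100a8 had opposite log2 ratios for the STING agonist without and with the LTbR agonist. S100a9 was 1.72 (1.62 to 1.82) for STING agonist over untreated and -2.24 (-2.41 to -2.07) for the combination over the LTbR agonist. S100a8 was 1.58 (1.48 to 1.68) and -2.51 (-2.71 to -2.32). The difference between the 2 ratios was not tested, since each group is 1 library. Cells with 2 or more neutrophil genes were 5.60% of untreated, 9.12% of STING agonist, 6.28% of LTbR agonist and 1.78% of combination cells, and the 3 cells with most UMIs held 73.7% to 95.9% of S100a9. Without cells with 2 or more neutrophil genes, S100a9 was -0.33 and S100a8 -0.23 for the combination over the LTbR agonist. Both genes are on the list by which those cells were removed.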

How the results depend on the processing

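No paired analysis was possible because each group is 1 library and the labels give no replicate numbers, so no replicate could be left out either. The ratio of shares for LTbR agonist over untreated, 1.05, went to 1.31 with cells thinned to 5000 UMIs, 1.17 at 2000 UMIs, 0.924 with Nos2 alone, 1.30 with Inhba alone and 0.869 without the C1q limit. Combination over untreated, 0.728, went to 0.865 at 5000 UMIs, 0.849 with Inhba alone, 0.602 without the C1q limit and 0.943 over Lyz2-positive cells. Combination over STING agonist, 0.675, went to 0.562 without the C1q limit and 0.806 over Lyz2-positive cells, and combination over LTbR agonist, 0.692, to 0.598 at 2000 UMIs and 0.857 over Lyz2-positive cells.

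Counts of genes past 2-fold depended most on the CPM added. With 1 CPM they were 32 higher and 62 lower for the STING agonist, 78 and 67 for the LTbR agonist and 61 and 116 for the combination, all over untreated, and with 50 CPM they were 3 and 0, 3 and 5, and 3 and 14. With at least 200 UMIs, 6 were higher and 5 lower for the STING agonist, 11 lower for the LTbR agonist, and 9 higher and 27 lower for the combination. Without the 3 top cells of each gene, these were 4 and 3, 11 lower, and 9 higher. The STING agonist had 17 higher after thinning to 2000 UMIs, 6 with Nos2 and Inhba of at least 5, and 6 without cells with neutrophil markers, an alternative chosen after seeing the data. By mean CPM per cell, 6 were lower for the STING agonist and 10 for the LTbR agonist. Without cells with markers of other types, 5, 10 and 21 were lower.

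Of 972 gene values under alternatives, 758 were still past 2-fold and 19 changed sign. Without cells with markers of other types, S100a9 was -0.026 and S100a8 -0.0050 for STING agonist over untreated, S100a8 was 0.32 for combination over untreated and 0.32 over STING agonist, Ccr7 was 0.14 for LTbR agonist and 0.047 for combination over untreated, and Retnlg was -0.092 for STING agonist. Without cells with neutrophil markers, S100a9 was -0.021, Il12b -0.40 and Retnlg -0.083 for STING agonist over untreated, and S100a8 was 0.31 for combination over untreated and 0.23 over STING agonist. With Nos2 and Inhba of at least 5, S100a9 was 0.31 and S100a8 0.15 for combination over untreated, Lcn2 0.054 for combination over LTbR agonist and Retnlg -0.61 for STING agonist. Without the 3 top cells, Retnla was -0.036 for combination over LTbR agonist, Mmp9 -0.0021 for combination over untreated and Retnlg -0.086 for STING agonist. S100a9, S100a8, Retnlg and Ccr7 are themselves on the marker lists by which cells were removed. The cause was not tested beyond these removals. Genes with few UMIs are limited by counting error.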

Other observations

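Of barcodes outside the quality limits, 12 in the untreated, 2 in the STING agonist, 13 in the LTbR agonist and 6 in the combination library met the rest of the rule, or 2.94%, 0.966%, 1.92% and 1.12% of such barcodes. Plaur, the urokinase receptor, stood at 714, 950, 1114 and 1226 CPM in untreated, STING agonist, LTbR agonist and combination cells, and Cd80, a co-stimulatory ligand, at 213, 186, 337 and 340 CPM.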
